A study of Mus musculus with 9 samples.

Results

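Mitochondria translate their own small set of messengers on a dedicated ribosome. Its RNA comes from the mitochondrial genome, while all of its proteins are encoded in the nucleus, made in the cytosol and imported. The genes described here are the nuclear genes named for the proteins of this mitoribosome. They were chosen by name, as protein-coding genes of the GENCODE mouse annotation whose symbol starts with Mrpl or Mrps followed by a number, without pseudogenes. There were 78 of them among the 55487 gene identifiers measured, 49 named Mrpl for the large subunit and 29 named Mrps for the small one. By current structural knowledge 51 of the encoded proteins sit in the large subunit, including those of Mrps30 and Mrps18a, and 26 in the small subunit. Mrps36 carries a subunit name, but its protein is now known as a part of the alpha-ketoglutarate dehydrogenase complex. Of the large subunit proteins 30 have a bacterial counterpart and 21 are specific to mitochondria, and of the small subunit proteins 16 and 10. The proteins made on this ribosome are core parts of the respiratory chain and of ATP synthase, and T cells are known to enlarge their mitochondria when they leave quiescence.

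The cells were naive CD4+ T cells, helper T cells that have not yet met antigen, from lymph nodes of WT C57BL6/J mice. Polyadenylated RNA was sequenced in 9 libraries, 3 in each of 3 groups. One group had been cultured in vitro for 20 h with recombinant IL-1b, an inflammatory cytokine, at 10 ng/mL (IL-1b-treated), one had been cultured for 20 h without it (cultured), and one was freshly isolated (fresh). The labels give no age of the animals and no medium, and do not say whether replicates are separate animals or cultures.

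Total expected counts ranged from 13518814 to 23056686 per library. Each of the 78 genes had counts in each of the 9 libraries, from 77 for Mrpl55 to 2676 for Mrpl24 in a single library, and all 78 passed the filter on low counts with 13043 genes in all. The naive CD4+ T cell markers summed to 4056 to 4086 TPM in IL-1b-treated, 4644 to 4668 in the cultured and 6027 to 6164 in fresh cells. These 10 genes did not move together, with 4 higher and 6 lower in cultured than in fresh cells. With IL-1b 5 were higher and 4 lower than in cultured cells. Markers of B cells summed to 4.75 to 7.42, 4.56 to 5.66 and 58.1 to 73.0 TPM in the same order of groups, and those of NK cells to 5.0 to 6.53, 6.77 to 8.36 and 37.1 to 43.3 TPM. Myeloid and neutrophil markers each summed to at most 4.97 TPM in any IL-1b-treated or cultured library, against 18.1 to 21.9 and 14.6 to 42.7 TPM in fresh cells. CD8 T cell markers summed to 37.9 to 42.4 TPM in IL-1b-treated and 41.2 to 50.1 TPM in cultured cells, against 23.8 to 25.6 TPM in fresh cells. Stromal markers summed to 140.1 to 148.6 TPM in IL-1b-treated, 180.0 to 180.5 in cultured and 149.0 to 162.4 in fresh cells. Of these 5 genes only 1 passed the filter on low counts, and Ccl19 and Pdgfrb had no counts in any library. The sum thus does not stand for the stromal list as a whole. In such bulk samples fewer cells of a type and less RNA per cell cannot be told apart.

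The 78 genes together were a small part of the messenger pool. They took 0.231, 0.240 and 0.239% of all counts in the IL-1b-treated libraries, 0.210, 0.211 and 0.212% in the cultured ones and 0.187, 0.181 and 0.184% in the fresh ones, and the groups did not overlap. Counts grow with transcript length, and a level per length, in TPM, which scales each library's transcripts to one total, removes that part. In TPM the genes summed to 3659, 3718 and 3684 in IL-1b-treated, 3681, 3584 and 3656 in the cultured and 3503, 3428 and 3400 in fresh cells. On that scale the IL-1b-treated and cultured libraries overlapped, and both lay above the fresh ones. The large subunit genes summed to 2375 ± 22.6, 2315 ± 17.0 and 2178 ± 24.1 TPM (SD, n = 3) over the IL-1b-treated, cultured and then fresh libraries, and the small subunit genes to 1282 ± 32.0, 1294 ± 37.5 and 1240 ± 33.8 TPM. The libraries also differed in the length of the transcripts that were counted. The median effective length behind a count, over all genes, was 1789 ± 7.24 bases in IL-1b-treated, 2121 ± 18.4 in the cultured and 2370 ± 10.8 in fresh cells. The 78 genes are short, with a median effective length of 844 bases against 2037 for all tested genes.

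**Figure D1:**
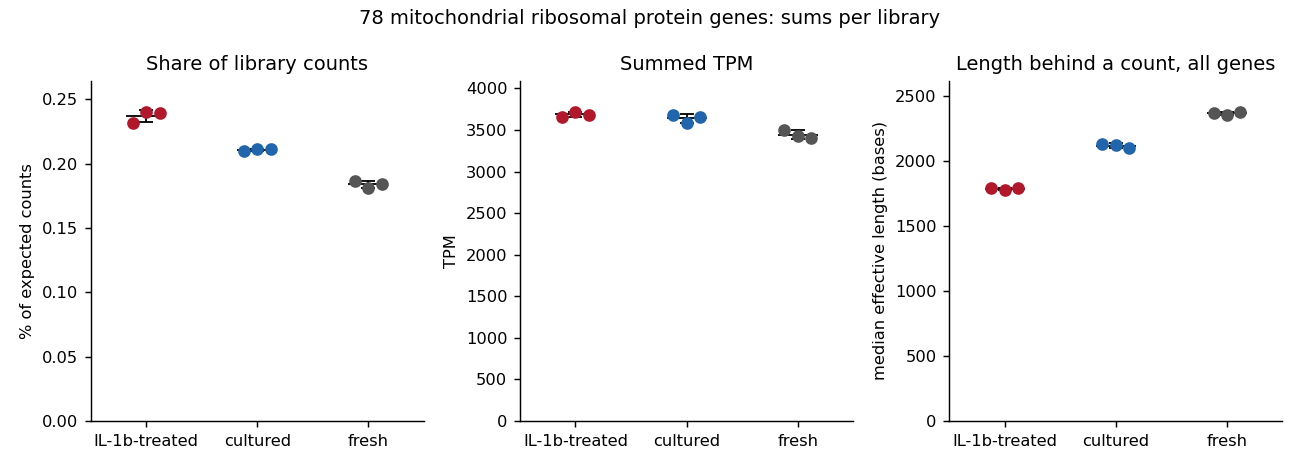
Share of library counts (%), summed TPM of the 78 genes and, over all genes, the median effective length behind a count (bases), with a point for each library and bars for the mean and SD of 3 libraries. The share of counts separates the groups at 0.237, 0.211 and 0.184%, the summed TPM of IL-1b-treated and cultured cells overlaps, and the length behind a count is lowest in IL-1b-treated cells.

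Levels per length spanned a wide range among the members. The highest in fresh cells was Mrpl24, a counterpart of a bacterial protein at the rim of the exit tunnel, at 186 ± 5.65 TPM (SD, n = 3). Mrps23, specific to the small subunit of mitochondria, followed at 132 ± 4.84, then Mrps21 at 126 ± 12.4, Mrpl58 at 120 ± 1.46 and Mrpl30 at 116 ± 6.18 TPM. The 4 genes from Mrps23 to Mrpl30 overlapped their neighbours in this order, whereas Mrpl24 stood above Mrps23 in every fresh library. Mrpl58 encodes a peptidyl-tRNA hydrolase that became a fixed part of the large subunit and can free stalled ribosomes. At the other end were Mrpl1 at 7.74 ± 0.655 TPM, Mrpl35 at 8.16 ± 2.62, Mrps22 at 10.9 ± 1.35, Mrpl47 at 11.2 ± 2.0 and Mrpl45 at 12.8 ± 1.02 TPM in fresh cells. Mrpl35 had the widest spread of these 5, with 9.0, 10.3 and 5.23 TPM in the fresh libraries. Each of these 5 overlapped its neighbours in the order of levels.

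The promoter windows of the genes that moved most in culture are shown because the members share a regulator class in textbooks, the ETS factor GABP and the factor NRF1. RefSeq windows of GRCm38.p6, from 250 bases before to 50 after a gene's start, were found for 69 of the 78 genes (75 windows). Windows are printed 5′ to 3′ on the strand of the gene, with capitals on any match on either strand. The motifs searched were CCGGAAG of the ETS family, the NRF1 core site TGCGCA, the E-box CACGTG bound by Myc and Max, the YY1 site AAGATGG, the GC box GGGCGG bound by Sp1 and the element TATAAA near some start sites. None of these motifs overlaps another in the windows shown. Mrpl20 (chr4:155802628-155802927, plus strand) and Mrpl41 (chr2:24975049-24975348, minus strand) had the largest rise in cultured over fresh cells among genes with a window, and Mrpl37 (chr4:107066817-107067116, minus strand) and Mrps26 (chr2:130563507-130563806, plus strand) the largest fall.
Mrpl20: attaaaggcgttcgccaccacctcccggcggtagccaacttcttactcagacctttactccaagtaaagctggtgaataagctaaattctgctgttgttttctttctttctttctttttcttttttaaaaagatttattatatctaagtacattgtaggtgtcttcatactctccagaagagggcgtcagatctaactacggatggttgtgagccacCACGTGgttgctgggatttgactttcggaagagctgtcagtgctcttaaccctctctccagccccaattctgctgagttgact
Mrpl41: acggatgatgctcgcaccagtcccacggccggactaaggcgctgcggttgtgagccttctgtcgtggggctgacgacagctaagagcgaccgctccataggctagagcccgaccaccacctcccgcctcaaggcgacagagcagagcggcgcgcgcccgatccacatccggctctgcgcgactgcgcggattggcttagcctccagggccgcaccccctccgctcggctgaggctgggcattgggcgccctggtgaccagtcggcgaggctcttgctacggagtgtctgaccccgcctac
Mrpl37: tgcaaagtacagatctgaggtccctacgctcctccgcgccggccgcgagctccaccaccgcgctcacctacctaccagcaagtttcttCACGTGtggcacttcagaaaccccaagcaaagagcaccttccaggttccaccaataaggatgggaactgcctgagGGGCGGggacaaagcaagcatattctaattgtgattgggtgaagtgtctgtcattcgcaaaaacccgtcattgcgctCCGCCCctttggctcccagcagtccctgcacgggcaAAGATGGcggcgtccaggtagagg
Mrps26: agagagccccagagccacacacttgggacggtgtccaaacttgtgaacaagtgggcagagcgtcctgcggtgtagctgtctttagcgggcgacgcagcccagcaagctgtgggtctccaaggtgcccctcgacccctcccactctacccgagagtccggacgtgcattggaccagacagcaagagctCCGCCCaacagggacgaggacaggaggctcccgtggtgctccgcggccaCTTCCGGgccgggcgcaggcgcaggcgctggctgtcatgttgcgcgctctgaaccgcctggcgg
The Mrpl20 window held an E-box and the Mrpl41 window none of the 6 motifs. The Mrpl37 window held an E-box, GC boxes on both strands and, near its end, a YY1 motif, and the Mrps26 window an ETS motif and a GC box. A match describes letters only and says nothing on binding.

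Across the members' windows ETS, NRF1 and YY1 motifs were in a larger share of windows than over all tested genes, which is a description with no test. The ETS motif was in 34.7% of the 75 members' windows, against 18.9% of the 11654 windows of tested genes and 8.86% of all 32851 windows of this length. For the NRF1 core site the shares were 29.3, 14.2 and 7.76%, and for the YY1 motif 17.3, 7.23 and 6.34%. The E-box was in 9.33, 10.2 and 7.15%, the GC box in 52.0, 61.7 and 35.7% and the TATAAA element in 6.67, 6.68 and 13.6%. Among the 44 windows of members higher in cultured than in fresh cells the ETS share was 34.1% and the NRF1 share 31.8%, close to the shares over all members. Members higher in IL-1b-treated than in cultured cells had the ETS motif in 28.2% of 39 windows, and members not called there in 41.7% of 36 windows. The members also sat close to other genes. A protein-coding gene on the opposite strand started within 1000 bases of the start of 33 of the 78 (42.3%), against 17.8% of 10997 tested protein-coding genes. One such pair joins both subunits, since Mrpl46 and Mrps11 start divergently from overlapping ends.

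Cells treated with IL-1b were compared with cells cultured for the same time without it, which asks what the cytokine added. Members of both subunits were higher with IL-1b when counts were scaled by the trimmed mean of M-values (TMM), by less than 2-fold. The number of genes called differed widely between scales. In the quasi-likelihood test of edgeR, adjusted after Benjamini and Hochberg over all genes, at a threshold of 0.05, 36 of the 78 genes were higher and 0 lower, where 15.6% of all tested genes were higher and 13.3% lower. At an unadjusted p under 0.05 these counts were 46 and 1, and DESeq2 called 34 and 0 and limma-voom 36 and 0. The median log2 fold change of the 78 was 0.25, against -0.01 over all tested genes, and the folds of the called genes ran from 1.14 to 1.58. In TMM-scaled CPM, counts relative to the library's scaled total, the 3 libraries of each group did not overlap for 43 genes that were higher and 1 that was lower, where 21.1% of all tested genes were separate upward and 19.1% downward.

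When each library's trend on GC and transcript length was taken out first, 22 members were higher and 0 lower, against 14.8 and 4.58% of tested genes, and the median was 0.15 against 0.04 over all genes. In limma on log2(TPM + 0.5), 6 were higher (Mrps18c, Mrpl18, Mrpl52, Mrpl46, Mrpl30 and Mrpl23) and 6 lower (Mrpl37, Mrps18a, Mrpl43, Mrps26, Mrpl4 and Mrpl57), against 2.22 and 34.3% of tested genes, and the median of the members was -0.03 where that of all genes was -0.28. The calls of the other members given below as higher with IL-1b did not hold on that scale. Relative to the median gene the members were thus higher on each of these scales, while on the TPM scale the members' own median was below 0. With totals as the only scaling the median over all tested genes was -0.12, and 26 members were higher and 1 lower.

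Among large subunit genes 28 of 51 were higher with IL-1b and 0 lower (median 0.32). Mrpl52, whose protein is specific to mitochondria, had 18.1, 18.3 and 19.8 CPM in IL-1b-treated and 12.2, 11.9 and 11.5 CPM in cultured cells, a log2 fold change of 0.66 ± 0.12 (SE; edgeR adjusted p = 2.95e-04). Mrpl14, a counterpart of a bacterial protein at the subunit interface, had 14, 13.1 and 16.4 CPM in IL-1b-treated against 8.59, 9.58 and 9.58 CPM in cultured cells (0.65 ± 0.14, adjusted p = 0.00132). Mrpl20, whose bacterial counterpart binds ribosomal RNA early in assembly, had 36.7, 47.1 and 40.8 CPM in IL-1b-treated against 27.8, 28.5 and 23.1 CPM in cultured cells (0.65 ± 0.11, adjusted p = 7.67e-05). In all 3 genes every IL-1b-treated library lay above every cultured one. On the TPM scale the differences of these 3 genes were 0.27, 0.29 and 0.29, of which that of Mrpl52 passed the threshold.

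Mrpl18, of the central protuberance that touches the small subunit, had 67.2, 72.5 and 74.6 CPM in IL-1b-treated against 47.7, 46.6 and 46.3 CPM in cultured cells (0.61 ± 0.07, edgeR adjusted p = 2.89e-07), and it was also higher on the TPM scale (0.39, adjusted p = 0.00289 in limma). Mrpl46 rose by 0.56 ± 0.10 (adjusted p = 1.11e-04), Mrpl48 by 0.50 ± 0.09 and Mrpl40 by 0.33 ± 0.10, and Mrpl58 by 0.33 ± 0.07. The call of Mrpl40 was lost after removal of the GC and length trend (0.18, adjusted p = 0.242). Mrpl38 was not called at 0.03 ± 0.11. Mrpl55 rose by 0.56 ± 0.16 (adjusted p = 0.0105), a call lost without cultured replicate 1 (adjusted p = 0.0536). Mrpl55 is the least counted member in a single library.

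Mrpl12, of the stalk that recruits translation factors, had 44.9, 43.5 and 40.3 CPM in IL-1b-treated against 29.6, 31.8 and 36.4 CPM in cultured cells (0.39 ± 0.10, edgeR adjusted p = 0.0039), while Mrpl10, its anchor on the ribosome, was not called at 0.09 ± 0.09 and Mrpl53 not at 0.25 ± 0.16. Mrpl53 shares 88.0% of its exonic bases with an overlapping gene model on the same strand, so its reads cannot be fully assigned, and it was called without cultured replicate 3 (0.49 on the log2 scale, adjusted p = 0.0353). Mrpl45, which ties the ribosome to the inner membrane, was not called at 0.10 ± 0.16. Mrpl24, the most abundant member, rose by 0.32 ± 0.04 (adjusted p = 5.51e-06), with 161, 167 and 168 CPM in IL-1b-treated against 131, 135 and 133 CPM in cultured cells. Mrpl41 rose by 0.46 ± 0.10 (adjusted p = 0.00124). Mrpl44, related to RNase III, and Mrpl39, related to threonyl-tRNA synthetases, rose by 0.33 ± 0.11 and 0.36 ± 0.11 with TMM scaling, but were below 0 in TPM at -0.01 and -0.12. The call of Mrpl44 did not hold on leaving out any of 5 libraries (adjusted p up to 0.0834), nor that of Mrpl39 for any of 3 (up to 0.137) or that of Mrpl47, at 0.36 ± 0.13, for any of 5 (up to 0.205). After removal of the GC and length trend all 3 calls were lost, at 0.27, 0.31 and 0.28 (adjusted p = 0.0888, 0.0553 and 0.149). Mrpl36, a very short protein, was not called at 0.21 ± 0.11, but was called without IL-1b-treated replicate 1 (0.33, adjusted p = 0.0438).

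Among small subunit genes 8 of 26 were higher with IL-1b and 0 lower (median 0.18), and whether the subunits differed was not tested. Mrps18c, the counterpart of the bacterial protein S18, had 31.8, 36.8 and 31.5 CPM in IL-1b-treated against 21, 24.4 and 19.7 CPM in cultured cells (0.62 ± 0.10, edgeR adjusted p = 7.96e-05), and was higher on the TPM scale too (0.43, adjusted p = 0.00492 in limma). Of its relatives, Mrps18b, of the small subunit, was not called at 0.27 ± 0.10 (adjusted p = 0.0565, and 0.0345 without fresh replicate 1) and Mrps18a, of the large subunit, not at -0.13 ± 0.15. Mrps33 was the 1 called gene among the 10 specific to mitochondria, with 47.5, 40.7 and 47.3 CPM in IL-1b-treated against 29.2, 32.8 and 30.2 CPM in cultured cells (0.55 ± 0.09, adjusted p = 9.59e-05). Mrps14 rose by 0.46 ± 0.08 and Mrps21 by 0.41 ± 0.11, calls that were lost after removal of the GC and length trend (0.18 and 0.16, adjusted p = 0.141 and 0.308). Mrps12, which lines the decoding centre, was at 0.14 ± 0.17, Mrps6 at 0.01 ± 0.16, Mrps27, a pentatricopeptide repeat protein, at 0.14 ± 0.12 and Mrps34 at 0.16 ± 0.11, none of them called. Mrps23 was not called at 0.20 ± 0.08, but was called without IL-1b-treated replicate 2 or cultured replicate 3 (adjusted p = 0.0392 and 0.0348). Mrps36 was not called at 0.36 ± 0.16 (adjusted p = 0.0235 without IL-1b-treated replicate 1), and Mrps30 of the large subunit was at -0.03 ± 0.10.

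**Figure D2:**
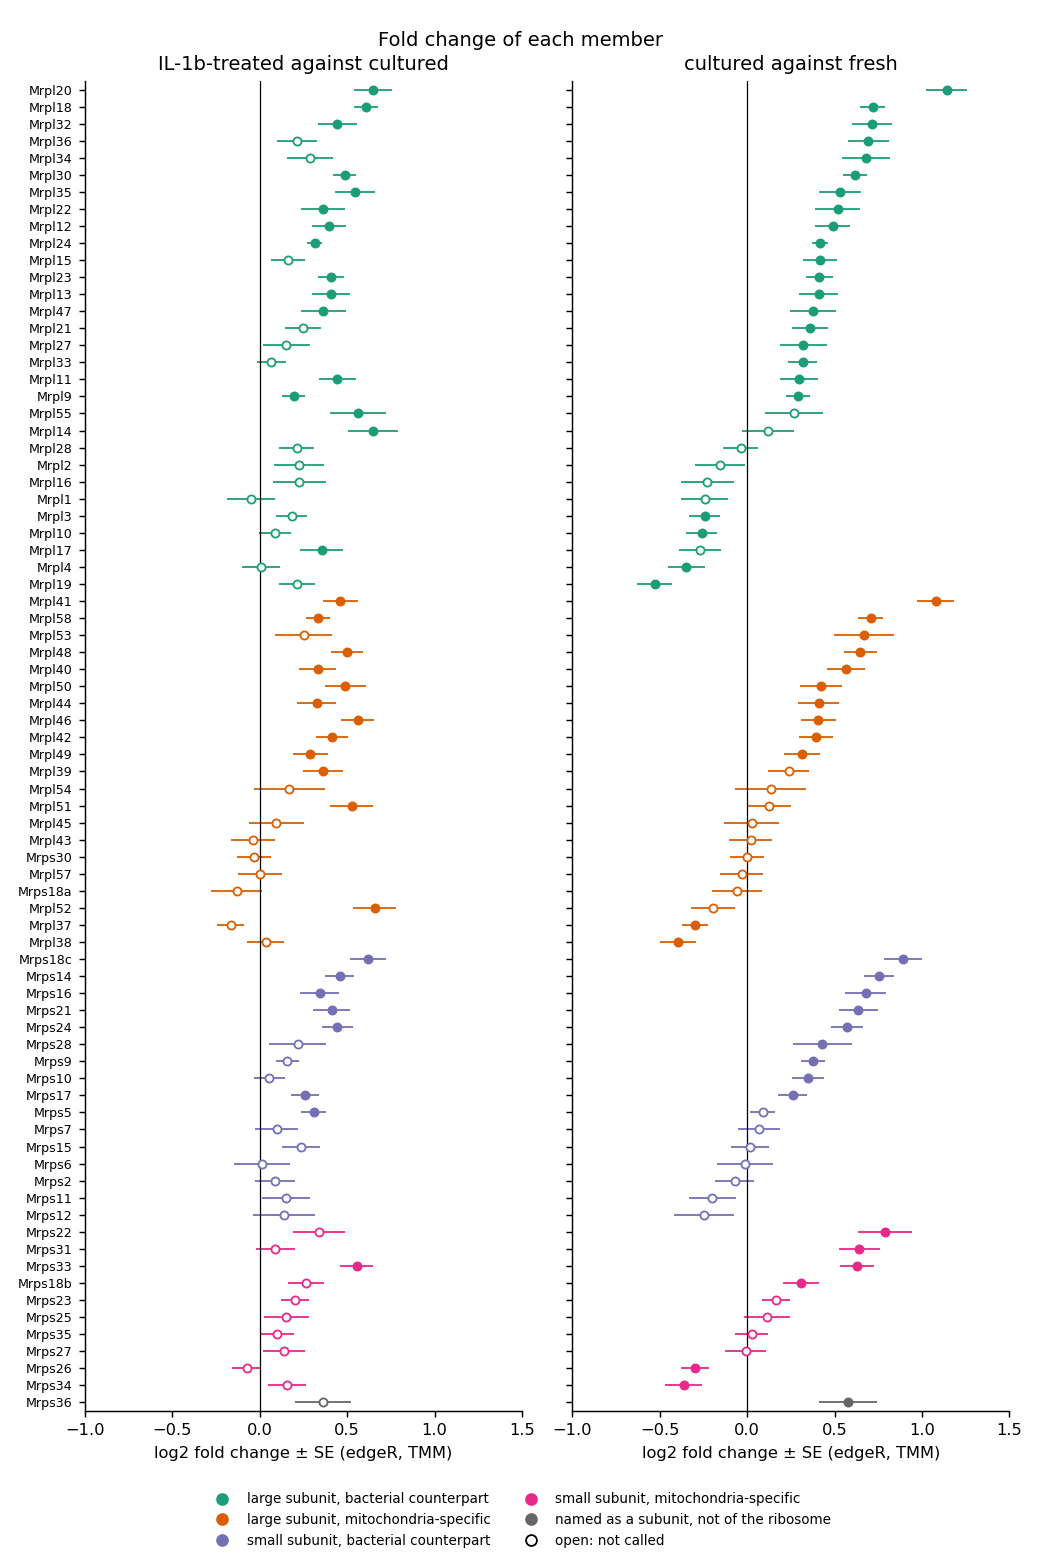
Log2 fold change with SE (edgeR, TMM) of each of the 78 genes, coloured by role, for IL-1b-treated against cultured and cultured against fresh cells, with filled points for called genes. With IL-1b the called genes lie to the right of 0, and in culture 43 lie to the right and 8 to the left.

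Cultured cells were set against fresh ones to see what 20 h in vitro changed without the cytokine. Members moved both ways, with rises up to 2.20-fold for Mrpl20 and falls in a smaller set. In edgeR's test 43 of the 78 genes were higher and 8 lower, where 29.4% of all tested genes were higher and 28.9% lower. The median log2 fold change was 0.31, against 0.00 over all genes. Large subunit genes were higher in 29 and lower in 6 of 51 cases, and small subunit genes higher in 13 and lower in 2 of 26. After removal of the GC and length trend 27 were higher and 11 lower, against 29.4 and 25% of tested genes, with a median of 0.13 against 0.03. On the TPM scale 20 were higher and 12 lower, against 14.4 and 36.7%, with a median of 0.10 where that of all genes was -0.21. The count of 8 lower genes was 5 without cultured replicate 2. All 10 B cell markers were lower in cultured than in fresh cells, and the part of such cells in these results was not tested. Both comparisons given so far use the cultured libraries, so a high or low value there enters both with opposite signs.

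Mrpl20 (ENSMUSG00000029066, mm10 chromosome 4, 155802878 to 155809975) had 27.8, 28.5 and 23.1 CPM in cultured against 12.4, 10.7 and 13 CPM in fresh cells, a log2 fold change of 1.14 ± 0.12 (edgeR adjusted p = 1.80e-08). Mrpl41 (ENSMUSG00000036850, mm10 chromosome 2, 24974117 to 24975098), specific to mitochondria, had 22.5, 24.6 and 26.4 CPM in cultured against 12.6, 10.1 and 12.1 CPM in fresh cells (1.08 ± 0.11, adjusted p = 1.30e-08). These were the 2 members at or above 2-fold, and each cultured library was above each fresh one. They stayed apart on the TPM scale at 0.91 and 0.84, and after removal of the GC and length trend at 0.93 and 0.96.

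Other large subunit genes rose by less. Mrpl18 had 47.7, 46.6 and 46.3 CPM in cultured against 29.2, 28.3 and 27.9 CPM in fresh cells (0.72 ± 0.07, edgeR adjusted p = 7.82e-09). Mrpl32, which a mitochondrial protease must trim before assembly, rose by 0.71 ± 0.12 and Mrpl58 by 0.71 ± 0.07, with no overlap of libraries in either. Mrpl36 rose by 0.69 ± 0.12, Mrpl48 by 0.65 ± 0.10 and Mrpl30 by 0.62 ± 0.07. In the stalk Mrpl12 rose by 0.49 ± 0.10 and Mrpl53 by 0.67 ± 0.17, while Mrpl10 fell. Mrpl24 rose by 0.42 ± 0.04, Mrpl44 by 0.41 ± 0.12 and Mrpl47 by 0.38 ± 0.13, the last a call lost without cultured replicate 2 (adjusted p = 0.154) or either of 2 fresh libraries. On the TPM scale Mrpl12, Mrpl53, Mrpl44 and Mrpl47 were not called (0.25, 0.37, 0.16 and 0.40), and Mrpl47 was not called after removal of the trend on GC and length either (0.25, adjusted p = 0.114). Mrpl52 and Mrpl14, which led the IL-1b comparison, were not called here at -0.20 ± 0.13 and 0.12 ± 0.15. On the TPM scale, however, Mrpl52 was called lower in cultured than in fresh cells (-0.47, adjusted p = 0.00154 in limma).

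Of the 8 genes that fell in culture 6 encode large subunit proteins, as do 51 of all 78 members. Mrpl19 had 19.9, 21.5 and 18.9 CPM in cultured against 25.7, 29.4 and 32.3 CPM in fresh cells (-0.53 ± 0.10, edgeR adjusted p = 1.04e-04). The call was lost with an effective length offset (-0.29, adjusted p = 0.306) and on the TPM scale (-0.51, adjusted p = 0.0927). The gene is the second longest member, after Mrps30, and shares 36.0% of its exonic bases with Gcfc2 on the opposite strand. Mrpl38 of the central protuberance had 27.2, 20.6 and 25.3 CPM in cultured against 31.6, 32 and 32.6 CPM in fresh cells (-0.40 ± 0.10, adjusted p = 0.00235). Mrpl37 (ENSMUSG00000028622, mm10 chromosome 4, 107055874 to 107066868) had 40.6, 43 and 41.6 CPM in cultured against 48, 50.8 and 55.7 CPM in fresh cells (-0.30 ± 0.07, adjusted p = 0.00159). All cultured libraries were below all fresh ones for these genes.

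Mrpl4, whose bacterial counterpart lines the exit tunnel, was at -0.35 ± 0.11 (adjusted p = 0.00676), a call lost without cultured replicate 2 or fresh replicate 1 (adjusted p = 0.0547 and 0.0544). Mrpl10 of the stalk was at -0.26 ± 0.09 (adjusted p = 0.0161, and 0.0787 without cultured replicate 1), and Mrpl3, a counterpart of a bacterial protein near the peptidyl transferase centre, at -0.24 ± 0.09 (adjusted p = 0.0186, and up to 0.0868 without any of 3 libraries). In the small subunit Mrps26 (ENSMUSG00000037740, mm10 chromosome 2, 130563742 to 130568695) had 34.6, 36.7 and 40.6 CPM in cultured against 45.4, 47.1 and 45 CPM in fresh cells (-0.30 ± 0.08, adjusted p = 0.00307). Mrps34, which shares 63.4% of its exonic bases with Mapk8ip3 on the opposite strand and 37.0% with Nme3 on the same strand, was at -0.36 ± 0.11 (adjusted p = 0.0056, and 0.0621 without cultured replicate 2). After removal of the GC and length trend Mrpl4 and Mrpl10 were not called (-0.15 and -0.13), whereas on the TPM scale both were lower (-0.55 and -0.50). With an effective length offset in edgeR the calls of Mrpl37, Mrps26, Mrpl4 and Mrpl10 were also lost. Their values were then -0.25, -0.27, -0.33 and -0.27 (adjusted p = 0.0559, 0.0562, 0.0592 and 0.0556).

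Small subunit genes that rose in culture were led by Mrps18c, with 21, 24.4 and 19.7 CPM in cultured against 11.5, 11.9 and 11.7 CPM in fresh cells (0.89 ± 0.11, edgeR adjusted p = 3.43e-07). Mrps22, mutated in inherited cardiomyopathy in humans, had 13, 11.3 and 11.6 CPM in cultured against 8.06, 6.17 and 6.33 CPM in fresh cells (0.79 ± 0.15, adjusted p = 1.29e-04). Mrps14 had 33.4, 31.2 and 31.6 CPM in cultured against 18.6, 19 and 19.5 CPM in fresh cells (0.75 ± 0.09, adjusted p = 8.67e-08). In each the groups did not overlap. Mrps33 rose by 0.63 ± 0.10, Mrps21 by 0.64 ± 0.11 and Mrps18b by 0.31 ± 0.10, the last a call lost without fresh replicate 2 or 3 (adjusted p = 0.0741 and 0.0821). Mrps36 rose by 0.58 ± 0.17. The calls of Mrps33, Mrps18b and Mrps36 were lost after removal of the GC and length trend (0.19, 0.14 and 0.13, adjusted p = 0.0973, 0.242 and 0.522) and on the TPM scale (0.30, 0.06 and 0.32, adjusted p = 0.0792, 0.626 and 0.151). Mrps12, Mrps6 and Mrps27 were not called at -0.25 ± 0.17, -0.01 ± 0.16 and -0.01 ± 0.12, nor was Mrps23 at 0.17 ± 0.08. Of the large subunit, Mrpl39 was not called at 0.24 ± 0.12, but was called without cultured replicate 2 (adjusted p = 0.0109).

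**Figure D3:**
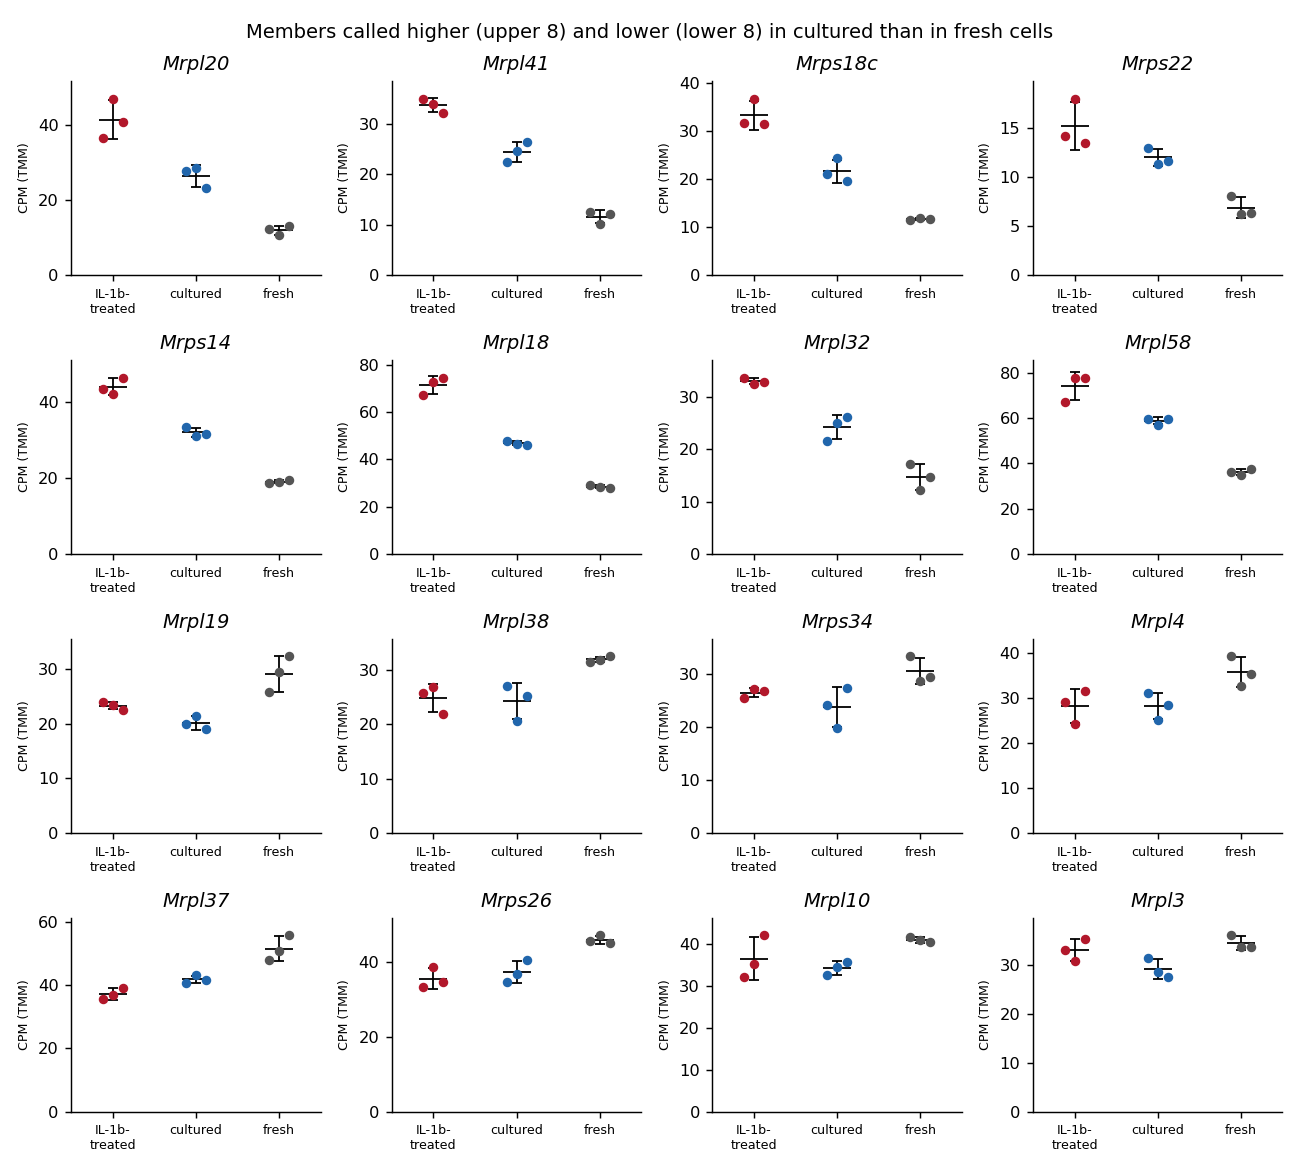
TMM-scaled CPM per library, from 0 on a linear axis, of the 8 members with the largest rise (upper rows) and the 8 called lower (lower rows) in cultured against fresh cells, with mean and SD of 3 libraries. The order of cultured and fresh cells is set by the choice of these genes. In the upper rows IL-1b-treated cells are highest on average, though Mrps22 was not called between IL-1b-treated and cultured cells. In the lower rows fresh cells are highest on average.

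IL-1b-treated cells set against fresh ones carry both steps, and share libraries with each of the comparisons above. Here 51 members were higher and 5 lower in edgeR's test, where 32.9% of all tested genes were higher and 32.6% lower, and the median was 0.59 against -0.01. Of the 51, 15 were at least 2-fold higher. Mrpl20 had 36.7, 47.1 and 40.8 CPM in IL-1b-treated against 12.4, 10.7 and 13 CPM in fresh cells, a 3.45-fold difference (1.79 ± 0.12, adjusted p = 3.73e-12). Mrpl41 differed by 1.54 ± 0.11, Mrps18c by 1.51 ± 0.11 and Mrpl18 by 1.33 ± 0.07, and Mrps14, Mrps33, Mrpl32 and Mrpl48 by 1.21, 1.18, 1.16 and 1.15. The 5 lower genes were Mrpl37 at -0.46 ± 0.08, Mrps26 at -0.37 ± 0.08, Mrpl38 at -0.36 ± 0.10, Mrpl4 at -0.34 ± 0.11 and Mrpl19 at -0.32 ± 0.10. The call of Mrpl4 was lost without IL-1b-treated replicate 2 or fresh replicate 1 (adjusted p = 0.0607 and 0.0557). That of Mrpl19 was lost without fresh replicate 3 (0.0653), and its sign was positive with an effective length offset (0.20).

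On the TPM scale 29 members were higher and 22 lower in IL-1b-treated than in fresh cells, against 11.8 and 54.5% of tested genes, and the median was 0.09 where that of all genes was -0.50. After removal of the GC and length trend 43 were higher and 12 lower, against 34.7 and 26.3%, with a median of 0.28 against 0.06. Mrpl52 was higher with TMM scaling at 0.46 ± 0.12 and below fresh cells on the TPM scale at -0.19, and likewise Mrpl39 at 0.60 ± 0.12 and -0.27, Mrps18b at 0.57 ± 0.10 and -0.09, and Mrps23 at 0.37 ± 0.08 and -0.11. For Mrpl20, Mrpl41, Mrps18c and Mrpl18 the TPM values were 1.20, 0.94, 0.99 and 0.85, all called in limma. Mrpl1, the least abundant member, was not called with TMM scaling at -0.29 ± 0.14, and Mrpl10 not at -0.17 ± 0.09. Mrpl1 was called without IL-1b-treated replicate 1 (edgeR adjusted p = 0.0400), and Mrpl10 without IL-1b-treated replicate 3 (0.00857). On the TPM scale both were called lower (-0.71 and -0.73, adjusted p = 0.00251 and 7.59e-05 in limma). With library size alone both were also called lower (-0.46 and -0.34), and Mrpl1 was after removal of the GC and length trend (-0.48, edgeR adjusted p = 0.00357).

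Transcript length moved with these differences. Of the 78 genes 52 lay in the shortest 20% of tested genes, up to 1046 bases, and none in the longest 20%. In that shortest band 27 of 52 members (51.9%) were higher in IL-1b-treated than in cultured cells, against 31.6% of the 2609 genes there. In the next band, up to 1681 bases, 7 of 19 members (36.8%) were higher, against 20.1% of genes. For cultured against fresh cells the shares were 59.6 and 38.6% in the shortest band and 52.6 and 31.8% in the next. Across the 78 members the log2 fold change fell with log2 length, with Pearson's r of -0.38 for IL-1b-treated against cultured cells and -0.31 for cultured against fresh cells, and across 13025 tested genes r was -0.23 and -0.11. By rank, Spearman's rho was -0.35 and -0.30 over the members, and -0.37 and -0.18 over the tested genes. For IL-1b-treated against cultured cells the relation by rank was thus similar in the members and over all tested genes. These r and rho describe genes of the same libraries, which are not independent replicates. The members' shorter transcripts include Mrpl52 at 203 and Mrps21 at 221 bases, and the longest is that of Mrps30 at 3155.

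**Figure D4:**
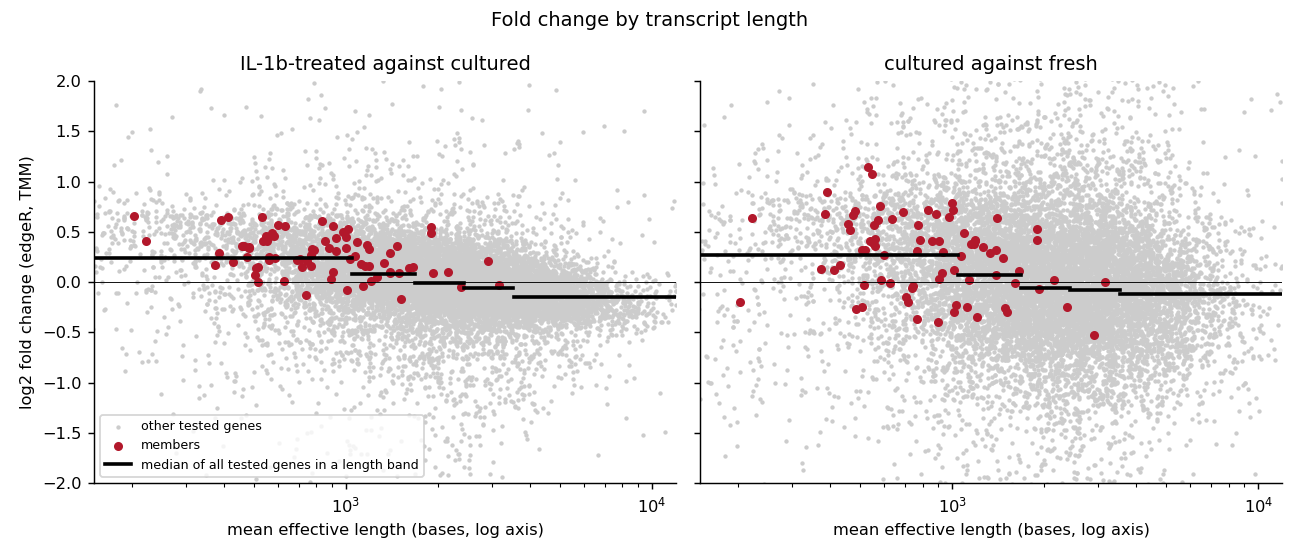
Log2 fold change (edgeR, TMM) against mean effective length (log axis) for members and all other tested genes, with the median of all tested genes in each of 5 equal length bands as a bar. Points beyond the axes are not drawn. The bar of the shortest band lies at 0.24 for IL-1b-treated against cultured and 0.27 for cultured against fresh cells, and most members lie in that range of lengths.

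The mix of transcripts of a gene also shifted for some members, seen as a change in the deposited mean transcript length. Of 75 members with more than 1 annotated transcript, 4 differed by at least 10% with separate libraries between IL-1b-treated and cultured cells, 5 between cultured and fresh and 7 between IL-1b-treated and fresh cells, where 4.6, 7.30 and 8.86% of 10752 genes did. The members' shares were near those over all genes. Mrpl47 had mean lengths of 1038, 1071 and 1221 bases in IL-1b-treated, 1514, 1388 and 1330 in the cultured and 1524, 1888 and 1612 in fresh cells. Its TPM values were 22.5, 22 and 17.7 in IL-1b-treated, 11.6, 17.9 and 15.7 in the cultured and 13.4, 9.44 and 10.9 in fresh cells, and it shares exonic bases with Ndufb5 and Actl6a. Mrps17 had 1095, 1197 and 1078 bases in IL-1b-treated, 1220, 1318 and 1261 in the cultured and 1419, 1595 and 1423 in fresh cells. Both were shortest with IL-1b and longest in fresh cells, and the groups did not overlap for either. Mrpl38 went the other way, at 1036, 1235 and 1280 bases in IL-1b-treated, 1190, 1152 and 1150 in the cultured and 994, 1024 and 989 in fresh cells. Between cultured and fresh cells its log2 difference was -0.91 in TPM and -0.40 in TMM-scaled counts.

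Counts of some members rest on shared ground. Of the 78 genes 33 share exonic bases with another gene, 28 of them with one on the opposite strand, 8 with one on the same strand, and 6 over at least 30% of their exonic bases. Apart from Mrpl53, Mrps34 and Mrpl19 these 6 are Mrps25, with 69.8% shared with Nr2c2, Mrpl43, with 33.4% shared with Twnk, and Mrps18b, with 30.5% shared with Gm16279, all on the opposite strand. The libraries mark strand, but whether counting used it is not given in the sources used here, so reads of such pairs cannot be told apart with certainty. Mrps25 was at 0.15 ± 0.13 between IL-1b-treated and cultured and at 0.11 ± 0.13 between cultured and fresh cells, and Mrpl43 at -0.04 ± 0.12 and 0.02 ± 0.12. Neither gene was called in these comparisons.

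Proteins that carry other names complete the mitoribosome, and further genes build it, load it and supply its templates. Their counts stand against 15.6% of all tested genes higher and 13.3% lower with IL-1b, and 29.4 and 28.9% in culture, and on the TPM scale against 2.22 and 34.3%, and 14.4 and 36.7%. After removal of the GC and length trend the shares of all tested genes were 14.8 and 4.58% with IL-1b, and 29.4 and 25% in culture. Of 5 subunit genes with other names 3 were higher and 0 lower in IL-1b-treated than in cultured cells, and 4 and 0 in cultured than in fresh cells. Chchd1 had 31.7, 31.3 and 34.7 CPM in IL-1b-treated, 22.7, 23.5 and 23.6 CPM in cultured and 13.3, 15.8 and 15 CPM in fresh cells (0.48 ± 0.10 and 0.67 ± 0.10), and Aurkaip1 rose by 0.52 ± 0.08 and 0.37 ± 0.08 in these comparisons. Dap3, a GTP-binding small subunit protein, was at 0.14 ± 0.06 and 0.25 ± 0.06, of which the second was called. In TPM 0 of the 5 were higher and 1 lower with IL-1b (median -0.15), and 1 was higher and 1 lower in culture. With the GC and length trend removed 2 were higher and 0 lower with IL-1b, and 4 and 0 in culture.

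Of 27 assembly factors 3 were higher and 1 lower in IL-1b-treated than in cultured cells (median 0.09, and -0.23 on the TPM scale), and 5 were higher and 8 lower in cultured than in fresh cells. In TPM 0 were higher and 6 lower with IL-1b, and 2 higher and 10 lower in culture. With the GC and length trend removed 0 were higher and 0 lower with IL-1b, so no IL-1b call held there. In culture 4 were then higher and 7 lower. Rbfa, which matures the small subunit, rose by 0.18 ± 0.06 and 0.54 ± 0.06, the helicase gene Dhx30 was lower at -0.26 and -0.48, and the GTPase gene Noa1 was at -0.09 ± 0.10 and -0.63 ± 0.10. Of 15 translation factors 3 were higher and 0 lower with IL-1b, and 2 higher and 6 lower in culture. By TPM 1 was higher and 4 lower with IL-1b (median -0.24), and 0 higher and 8 lower in culture. With the trend removed 1 was higher and 0 lower with IL-1b, and 2 higher and 8 lower in culture. The recycling factor gene Mrrf had 18.8, 16.4 and 18.8 CPM in IL-1b-treated, 11.4, 12.5 and 13 CPM in cultured and 12.7, 12.3 and 12.1 CPM in fresh cells (0.55 ± 0.12 with IL-1b, adjusted p = 9.96e-04). Slirp, which binds mitochondrial messengers with the Lrpprc protein, rose by 0.66 ± 0.17 with IL-1b and 0.58 ± 0.18 in culture, while Lrpprc was at 0.01 ± 0.08 and -0.44 ± 0.07. Both calls of Slirp were lost on the TPM scale (0.52 and 0.35, adjusted p = 0.274 and 0.435). The elongation factor gene Tufm was at 0.10 ± 0.09 and -0.40 ± 0.08, the second called lower.

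Mitochondrial aminoacyl-tRNA synthetase genes were higher in 1 and lower in 3 of 17 cases with IL-1b, and higher in 4 and lower in 5 in culture. Scaled as TPM, 0 were higher and 6 lower with IL-1b, and 3 higher and 8 lower in culture. With the GC and length trend removed 0 were higher and 3 lower with IL-1b, and 6 higher and 7 lower in culture. Vars2 was at -0.91 ± 0.09 and Ears2 at -0.95 ± 0.11 between cultured and fresh cells, and Iars2 at 0.61 ± 0.05. Lars2 had 65.6, 59.1 and 65.8 CPM in IL-1b-treated, 376, 390 and 373 CPM in cultured and 116, 125 and 121 CPM in fresh cells, and since the gene holds a stretch like mitochondrial ribosomal RNA its counts are uncertain. Genes for mitochondrial transcription and DNA maintenance were higher in 2 and lower in 2 of 11 cases with IL-1b, and higher in 4 and lower in 3 in culture, and on the TPM scale in 0 and 3, and in 2 and 5. The RNA polymerase gene Polrmt was at -0.39 ± 0.08 and -0.53 ± 0.08, and the single-strand binding protein gene Ssbp1 at 0.37 ± 0.07 and 0.61 ± 0.07.

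The templates and the RNA of this ribosome come from the mitochondrial genome. Of its 13 messengers 12 were higher and 0 lower with IL-1b (median 0.46, and 0.10 on the TPM scale), and 10 were higher and 0 lower in cultured than in fresh cells (median 0.40, and -0.01 after removal of the GC and length trend). After removal of that trend 10 were higher and 0 lower with IL-1b, and 5 higher and 5 lower in culture. In TPM values 4 were higher and 0 lower with IL-1b, and 7 higher and 1 lower in culture. The small ribosomal RNA gene mt-Rnr1 had 331, 315 and 305 CPM in IL-1b-treated, 250, 262 and 247 CPM in cultured and 172, 181 and 156 CPM in fresh cells (0.33 ± 0.04 and 0.57 ± 0.05). The large one, mt-Rnr2, was at 0.53 ± 0.04 with IL-1b and -0.22 ± 0.04 in culture, so mt-Rnr2 was higher in one and lower in the other. Lars2, with its stretch like mitochondrial ribosomal RNA, moved the opposite way in both. Whether reads were misassigned between them was not tested. The libraries hold polyadenylated RNA, and whether they follow the total level of ribosomal RNA was not tested either. The IL-1b difference of mt-Rnr1 was not called on the TPM scale (adjusted p = 0.981). The proteins of the cytosolic ribosome, which makes the members' proteins, give a scale for these values. Of their 77 genes 76 were higher and 0 lower with IL-1b (median 0.59, and 0.27 on the TPM scale), and 74 were higher and 2 lower in culture (median 0.59, and 0.34 on the TPM scale). The members' medians on the TPM scale were -0.03 and 0.10 in these comparisons.

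**Figure D5:**
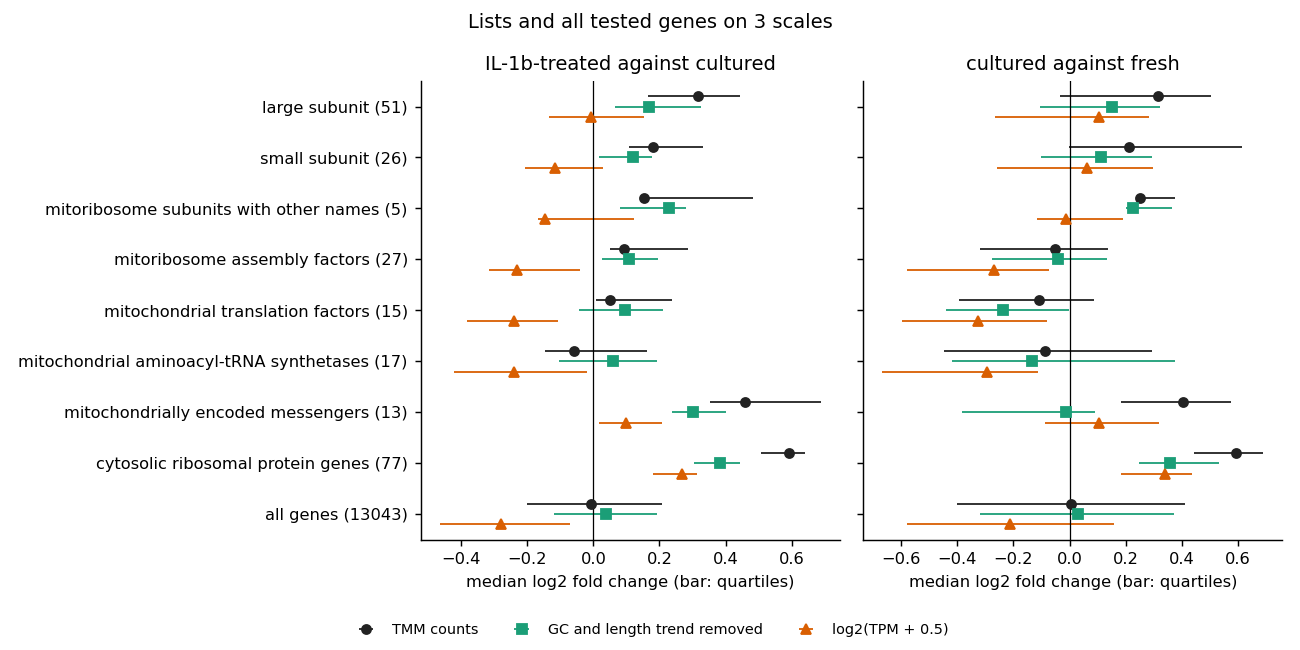
Median log2 fold change with quartiles for lists of genes and all tested genes (number tested in brackets), from TMM-scaled counts, after removal of the GC and length trend, and on log2(TPM + 0.5). Large subunit genes lie at 0.32 in TMM counts and -0.01 on the TPM scale with IL-1b, above all genes at -0.01 and -0.28.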

How the data were processed

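The submitters' processing notes name STAR, RSEM and the mm10 build; versions and RSEM's strand setting were not stated there. The libraries were made with a directional kit, per the labels' protocols. Per the file headers, the deposited tables hold RSEM expected counts, which split shared reads among genes and are not normalised, TPM values as the authors' RSEM run made them, FPKM values deposited alike and not used here, and transcript and effective lengths in bases.

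Expected counts were rounded; 20 of the 78 members had counts that were not whole in some library. Symbols, coordinates and overlaps came from GENCODE M21 (GRCm38, the same as mm10); 33 members share exonic bases with another gene, and 55227 of 55487 identifiers matched. Groups were compared in R 4.3.3 with edgeR 4.0.16 (TMM, filterByExpr, quasi-likelihood F test, 9 libraries in 1 fit on group, Benjamini-Hochberg adjustment over 13043 genes, threshold 0.05). The SE is the log2 fold change divided by the root of F. Without stated separate animals, p-values measure only the spread between these libraries, which may be technical. Alternatives used DESeq2 1.42.0, limma 3.58.1 and mgcv 1.9.3 for the GC and length trend; TPM fits used log2(TPM + 0.5), which understates changes of low genes. Python 3.11.15 with pandas 2.3.3 and matplotlib 3.10.9 read and drew the tables. The main edgeR fit was also run on counts simulated with the means and dispersions of these data. These counts held no GC or length trend, so that run cannot show how such a trend affects the calls. A floor of 3 counts equals 0.130 to 0.222 CPM per library.

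Members named are, per comparison, the 8 with the largest rise and the 8 with the largest fall among called genes whose libraries do not overlap, the 5 highest and 5 lowest by mean TPM in fresh cells, a panel chosen by role, and those whose call changes under an alternative; of partner lists, up to 3 called genes of smallest adjusted p each way per comparison. Other genes named were chosen after their values were seen. The members and lists were chosen with earlier results of these data known. The role lists rest on general knowledge.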

Additional observations from a re-analysis of the deposited data

How the results depend on the processing

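Of the values of single named members under all settings, 2719 kept direction and side of the threshold, 131 lost the call, 51 gained one, 19 changed sign with a call on at least one side and 104 changed sign with a call on neither; the causes were not tested. Counts are given here as members higher or lower. With the GC and length trend removed they were 22 higher for IL-1b-treated against cultured cells, 27 higher for cultured against fresh cells (median 0.13) and 12 lower for IL-1b-treated against fresh cells (median 0.28). On log2(TPM + 0.1) and log2(TPM + 0.5) alike, 6, 20 and 29 were higher in these 3 comparisons (medians -0.034, 0.10 and 0.094 on the first scale and -0.034, 0.10 and 0.093 on the second), while 7 and 6 were lower in the first and 22 in the last. An effective length offset gave 23 higher in the first and 3 lower in the second comparison. Library size alone gave 1 lower in the first and 10 lower in the last (median 0.42). The labels do not say whether the replicate numbers pair the libraries. Deviations from group means correlated at -0.022 to 0.019 between same-numbered libraries and at -0.051 to 0.033 between differently numbered ones. Such values cannot show whether same-numbered libraries share an animal or a day. The replicate block gave 36 higher and 0 lower, 42 and 8, and 51 and 5. With the trend removed as well it gave 21 higher, 27 higher (median 0.14) and 12 lower (median 0.27). Leaving out 1 library gave 27 to 37, 37 to 43 and 50 to 53 higher and 0, 5 to 9 and 4 to 6 lower. The ratio of the members' share of counts was 1.124, 1.147 and 1.29, in TMM-scaled counts 1.22, 1.19 and 1.449 and in summed TPM 1.01, 1.06 and 1.07. Among values with a call, the sign changed on both TPM scales for Mrpl39 (-0.12), Mrpl4 (-0.39) and Mrpl44 (-0.0059 and -0.0058) in the first comparison, and for Mrpl39 (-0.27), Mrpl52 (-0.19), Mrps18b (-0.087 and -0.086), Mrps23 (-0.11) and Mrps27 (-0.46 and -0.45) in the last. Mrps23 was at -0.055 in the last with the trend removed and at -0.061 with the block as well, and Mrpl19 at 0.20 with the length offset. A single library sets how finely a low member is measured: 3 counts equal 0.130 to 0.222 CPM.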
